A study of Mus musculus with 8 samples.

Results

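The genes described here were Cftr, which encodes an apical chloride channel, and 9 members of the Slc26 family of anion exchangers and channels (Slc26a1, Slc26a2, Slc26a3, Slc26a4, Slc26a6, Slc26a7, Slc26a9, Slc26a10 and Slc26a11). They were chosen by symbol, and all 10 were present among the 54532 genes of the count table. RNA-seq had been carried out on first molar enamel organ cells of untreated C57BL/6 wt mice at postnatal day 5 (P5), when ameloblasts of this tooth secrete enamel matrix, and at postnatal day 12 (P12), when the enamel matures. Each age had 4 libraries, numbered 1, 3, 4 and 5 at P5 and 1, 2, 3 and 4 at P12, and each library came from a pool of 5 pups. Molars had been dissected, the pulp tissue removed and the rest lysed whole, so the libraries held every cell type left on the tooth. The comparison asked how transcript abundance of these genes differed between the secretory and the maturation stage.

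Cftr conducts chloride and bicarbonate and is opened by protein kinase A. Most Slc26 proteins exchange chloride for bicarbonate, sulfate, iodide or oxalate, and some carry chloride alone. In enamel, growth of hydroxyapatite crystals releases protons, and maturation stage ameloblasts move bicarbonate towards the matrix to buffer them, so chloride channels and chloride/bicarbonate exchangers have long been studied in these cells.

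Total counts ranged from 16574548 to 20262601 at P5 and from 17588152 to 22013456 at P12. Of the 16440 genes that passed the filter on low counts, 57.2% were called at an adjusted p under 0.05, with 28.8% higher and 28.4% lower at P12, and 52.5% had no overlap between the ages. Adjusted p-values were computed in edgeR by the quasi-likelihood test and adjusted after Benjamini and Hochberg across every tested gene, and they measure only the spread between pools. The label of the tissue was checked with marker genes. The sum of 4 secretory stage ameloblast markers (Amelx, Ambn, Enam and Mmp20) took 23.2% to 25.5% of all normalized counts at P5 and 1.47% to 3.52% at P12. The sum of 5 maturation stage markers (Klk4, Amtn, Odam, Wdr72 and Slc24a4) took 0.0601% to 0.203% at P5 and 2.21% to 2.74% at P12. Mesenchyme and odontoblast markers took 4.61% to 5.58% at P5 and 4.81% to 6.53% at P12, so other cells of the tooth were present at both ages. In such bulk samples, fewer cells of a type and less RNA per cell cannot be told apart.

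Of the 10 members, 8 passed the filter, 3 were called higher at P12 (Cftr, Slc26a1 and Slc26a7), 3 were called lower (Slc26a2, Slc26a6 and Slc26a11) and 2 were not called (Slc26a4 and Slc26a10). Slc26a3 and Slc26a9 were too low to pass it and are given by their counts. Because 57.2% of all tested genes were called, with 28.8% higher and 28.4% lower, nothing particular to these genes was read from the count. Without overlap between the ages were 6 of the 8 tested members, against 52.5% of all genes. The median log2 fold change of the 8 was 0.18, beside 0.01 over all genes tested.

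**Figure D1:**
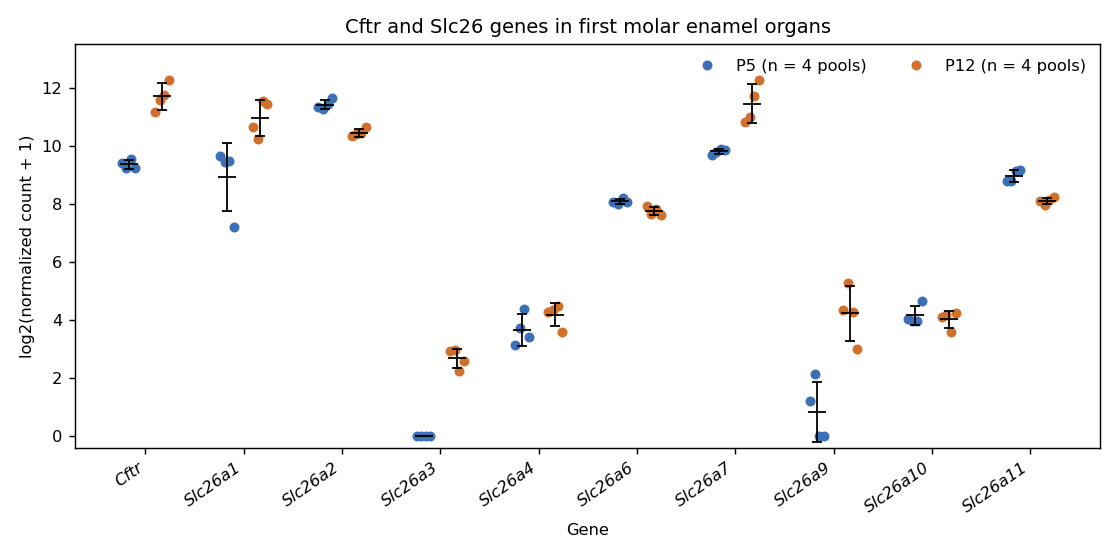
Normalized count of each member in each library (log2 scale, normalized count + 1), with P5 and P12 libraries as points and the mean ± SD of the log2 values per age. The P12 libraries of Cftr sit between 2296 and 4949, all above the P5 libraries at 600.1 to 738.

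The plot of normalized counts by library shows the members sorted by gene, with the counts divided by TMM effective library sizes and scaled to the mean effective size of 19037603. A value of 100 is then 100 reads in a library of that size.

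Cftr had the largest change of the tested members. Its normalized counts were 679, 606, 738 and 600.1 in P5 libraries 1, 3, 4 and 5. At P12 they were 2296, 3069, 3452 and 4949 in libraries 1 to 4. The ages were fully separate, and the lowest P12 library stood 3.11 times above the highest P5 library. Mean values of 656 ± 65.6 and 3441 ± 1114 (SD, n = 4 per age) gave a log2 fold change of 2.39 (SE 0.20, edgeR adjusted p = 1.6e-06), or 5.25-fold. Cftr ranked 439 of 16440 tested genes by log2 fold change, with 2.67% of genes at or above it. The SD between pools was 32.4% of the mean at P12 and smaller at P5. Cftr (ENSMUSG00000041301) lies on chromosome 6 at 18170687 to 18322768, plus strand, in GRCm38. An antisense gene, Gm15592, shares 1.66% of its exonic bases and had 1 to 6 counts at P5 and 11 to 23 at P12.

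The RefSeq promoter windows of 3 members are printed, those with a single annotated start and no overlap with annotated exons, and they differ in base composition and core motifs. Each is the 250 bases before the annotated start (GRCm38.p6), written on the strand of the gene. Capitals mark exact matches on either strand, with overlapping matches merged. The motifs searched were the so-called TATA box with the letters TATAAA, the CCAAT element, the GC box with the letters GGGCGG, the AP-1 site with the letters TGACTCA and the cAMP response element with the letters TGACGTCA. RefSeq windows were found for 7 of the 10 members, and those of Slc26a1, Slc26a3, Slc26a6 and Slc26a10 did not meet these conditions.
Cftr promoter, chr6:18170437-18170686, plus strand: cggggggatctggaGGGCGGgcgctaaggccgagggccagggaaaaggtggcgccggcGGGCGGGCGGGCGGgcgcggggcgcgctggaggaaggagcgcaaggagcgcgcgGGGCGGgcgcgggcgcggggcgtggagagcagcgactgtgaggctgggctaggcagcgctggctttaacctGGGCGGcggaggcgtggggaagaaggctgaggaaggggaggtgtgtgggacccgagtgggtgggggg
Slc26a9 promoter, chr1:131743772-131744021, plus strand: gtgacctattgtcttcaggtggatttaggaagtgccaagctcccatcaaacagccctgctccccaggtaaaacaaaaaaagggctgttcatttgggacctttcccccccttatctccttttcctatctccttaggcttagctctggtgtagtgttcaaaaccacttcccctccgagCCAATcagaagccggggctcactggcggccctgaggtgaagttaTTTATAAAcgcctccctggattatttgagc
Slc26a4 promoter, chr12:31559985-31560234, minus strand: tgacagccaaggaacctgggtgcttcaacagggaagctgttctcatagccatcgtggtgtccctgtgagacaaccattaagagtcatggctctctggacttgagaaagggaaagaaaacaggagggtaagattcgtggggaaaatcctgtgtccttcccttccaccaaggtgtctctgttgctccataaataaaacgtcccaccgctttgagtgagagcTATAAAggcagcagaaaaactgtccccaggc

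The Cftr window was 76.4% G and C, against a median of 52.4% over 32851 RefSeq promoter windows of the same length, and it held 6 GC boxes, 3 of them overlapping, with no TATAAA. GC boxes occurred in 32.7% of all windows. The Slc26a9 window was 50% G and C and held a CCAAT element (in 33.8% of all windows) and a TATA box (in 12.4%). The Slc26a4 window was 49.6% G and C and held 1 TATA box. None of the 3 windows held TGACTCA or TGACGTCA, which occurred in 4.46% and 1.55% of all windows. These matches describe letters only, and binding was not measured.

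Slc26a7, an exchanger and chloride channel of stomach, kidney and thyroid epithelium, was higher at P12 as well. Its normalized counts were 827, 869.8, 946 and 919.8 at P5, against 1818, 2007, 3387 and 4944 at P12. The ages did not overlap, and P12 libraries 3 and 4 were well above libraries 1 and 2. Mean values of 891 ± 53.2 and 3039 ± 1449.9 (SD, n = 4 per age) gave a log2 fold change of 1.77 (SE 0.27, edgeR adjusted p = 1.9e-04), or 3.41-fold. Without P12 library 4 the log2 fold change was 1.42. The gene (ENSMUSG00000040569) lies on chromosome 4 at 14502430 to 14621805, minus strand.

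Slc26a1, a sulfate and oxalate exchanger, rose. Relative to the mean, its SD was larger than that of Slc26a7 at P5 but not at P12 (40.2% against 47.7%). Its normalized counts were 801, 685, 704 and 145 at P5, against 1603, 1199, 2941 and 2746 at P12. P5 library 5 was far below the other P5 libraries, but the ages did not overlap. The mean went from 584 ± 297 to 2122 ± 853 (SD, n = 4 per age), with a log2 fold change of 1.87 (SE 0.43, edgeR adjusted p = 0.0031), or 3.65-fold. Without P5 library 5 the log2 fold change was 1.53 (edgeR adjusted p = 0.0013; over all alternatives, adjusted p from 7.9e-06 to 0.011). The sum of maturation stage markers was also lowest in that library among the P5 libraries, at 12880 against 36789 to 44228, and its part in the low Slc26a1 value was not tested. Slc26a1 (ENSMUSG00000046959, chromosome 5 at 108669878 to 108675569, minus strand) shares 3.48% of its exonic bases with antisense Idua, which rose by 0.61 on the log2 scale (SE 0.10, edgeR adjusted p = 3.0e-04).

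Slc26a2, the sulfate transporter that supplies sulfate to growing cartilage, fell. Its normalized counts were 2571, 2476, 2742 and 3163 at P5, against 1283, 1346, 1371 and 1605 at P12. No library of one age reached the range of the other, and the spread was small at both ages. The means were 2738 ± 304 and 1401 ± 141 (SD, n = 4 each), a log2 fold change of -0.97 (SE 0.09, edgeR adjusted p = 5.4e-06), and -0.60 when scaled by total counts. The gene (ENSMUSG00000034320) lies on chromosome 18 at 61192919 to 61211612, minus strand.

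Slc26a11, another sulfate transporter, fell by a similar amount. It had normalized counts of 438, 436, 558 and 566 at P5 and of 271, 246, 279.8 and 297 at P12. No P12 library reached the lowest P5 library. From 499.6 ± 72.1 to 273 ± 21.5 (SD, n = 4 each), the log2 fold change was -0.87 (SE 0.11, edgeR adjusted p = 4.7e-05), and -0.50 when scaled by total counts. The gene (ENSMUSG00000039908) lies on chromosome 11 at 119355557 to 119381079, plus strand.

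Slc26a6, a chloride/bicarbonate and oxalate exchanger, had the smallest called change. Its normalized counts were 266, 256, 291 and 265 at P5, against 242, 201, 225 and 196 at P12. The ages did not overlap, but P12 library 1 came close to the P5 range. The means were 269.5 ± 15.2 and 216 ± 21.6 (SD, n = 4 each), a log2 fold change of -0.32 (SE 0.10, edgeR adjusted p = 0.019). The call did not hold without P12 library 2 (adjusted p = 0.057) or without P5 library 4 (adjusted p = 0.054), and scaling by total counts gave 0.058 (over all alternatives, adjusted p from 0.010 to 0.66). That scaling shifted the all-gene median from 0.01 to 0.38 on the log2 scale, a larger move than the decrease of Slc26a6. The gene (ENSMUSG00000023259) lies on chromosome 9 at 108853283 to 108913049, plus strand.

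Slc26a4 encodes pendrin, a chloride, iodide and bicarbonate exchanger, and was low at both ages. Raw counts were 6, 11, 15 and 9 at P5, against 25, 23, 23 and 11 at P12. The ages overlapped once normalized, with 7.71 to 19.8 at P5 and 11.04 to 21.3 at P12. The log2 fold change was 0.52 (SE 0.36, edgeR adjusted p = 0.24). Scaled by total counts it was 0.90 (edgeR adjusted p = 0.046; over all alternatives, adjusted p from 0.046 to 0.57). The gene (ENSMUSG00000020651) lies on chromosome 12 at 31519827 to 31559969, minus strand.

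Slc26a10 showed no call. Raw counts were 12, 13, 11 and 23 at P5, against 22, 20, 12 and 18 at P12, and the normalized values overlapped. The log2 fold change was -0.15 (SE 0.30, edgeR adjusted p = 0.68). Of its exonic bases, 17.8% are shared with B4galnt1 on the opposite strand, which rose by 1.65 on the log2 scale (SE 0.14, edgeR adjusted p = 1.9e-06). Whether the counting used strand is not given in the sources used here, so the Slc26a10 counts are uncertain. The gene (ENSMUSG00000040441) lies on chromosome 10 at 127171393 to 127180645, minus strand.

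Slc26a9, a chloride channel and exchanger of airway and stomach epithelium, had almost no reads at P5. Raw counts were 1, 3, 0 and 0 at P5, against 26, 45, 20 and 7 at P12. Every P12 library was above every P5 library. The summed counts were 4 and 98, a normalized ratio of 17.9 (95% exact interval 6.77 to 66.9, for counting error only), and the exact two-sided permutation test over libraries gave p = 0.029, the smallest that 4 against 4 allows. The gene (ENSMUSG00000042268) lies on chromosome 1 at 131744022 to 131771504, plus strand.

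Slc26a3, the chloride/bicarbonate exchanger of the colon, was read only at P12. Raw counts were 0 in all 4 P5 libraries and 9, 8, 4 and 5 at P12. Against a floor of 3 counts over the P5 group, the P12 counts stood 6.33-fold higher, with no allowance for counting error at P12. The exact two-sided permutation test again gave p = 0.029. With no filter on low counts, edgeR called Slc26a9 and Slc26a3 higher as well (adjusted p = 6.4e-05 and 0.0018). Slc26a3 (ENSMUSG00000001225) lies on chromosome 12 at 31390871 to 31473917, plus strand, the same chromosome as Slc26a4 (31519827 to 31559969).

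**Figure D2:**
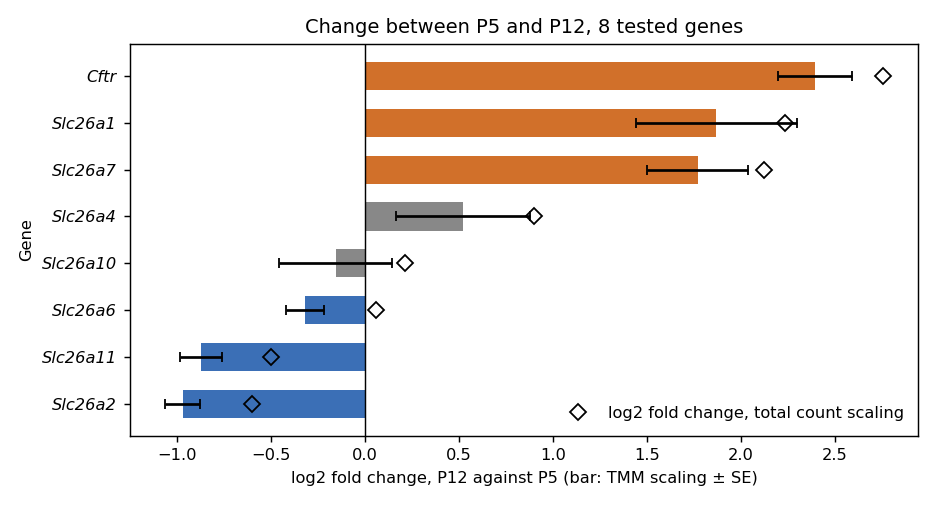
Log2 fold change at P12 against P5 of the tested members, as bars with standard errors (TMM scaling) and diamonds for total count scaling. Cftr is at 2.39, Slc26a1 at 1.87 and Slc26a7 at 1.77, while Slc26a2 is at -0.97 and Slc26a11 at -0.87.

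The plot of fold changes shows that the called members fall into a group at 1.77 or above and a group at or below -0.32, with Slc26a4 and Slc26a10 between them.

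Levels of different genes were compared as normalized counts per kilobase of exon. At P5 the order was Slc26a2 (221 ± 24.5), Slc26a7 (164 ± 9.80), Slc26a1 (144 ± 73.3), Slc26a11 (138 ± 19.98), Cftr (84.5 ± 8.45) and Slc26a6 (49.8 ± 2.81), with the other members below 10 (SD, n = 4). The P5 ranges of Slc26a7, Slc26a1 and Slc26a11 all overlapped one another. Slc26a1 ran from 35.8 to 198 across the P5 libraries, so its range also took in those of Cftr (77.3 to 95.1) and Slc26a6 (47.3 to 53.8). In P5 library 5, its lowest, Slc26a1 was below both. At P12 the order was Slc26a7 (560 ± 267), Slc26a1 (524 ± 211), Cftr (443 ± 143), Slc26a2 (113 ± 11.4), Slc26a11 (75.8 ± 5.96) and Slc26a6 (39.9 ± 3.99). The ranges of Slc26a7, Slc26a1 and Cftr all overlapped one another at P12, while Slc26a2 was below Cftr in every library.

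The summed level of the 9 Slc26 members was 726 ± 47.8 per kilobase at P5 and 1327 ± 467 at P12 (SD, n = 4 each). Slc26a2 held 30.7 ± 4.79% of that sum at P5 and 9.20 ± 2.61% at P12. Slc26a7 held 22.6 ± 1.82% and 41.0 ± 6.16%. Slc26a1 held 19.6 ± 9.71% and 39.0 ± 5.43%, with 5.30% in P5 library 5. Slc26a11 held 19.1 ± 3.04% and 6.16 ± 1.74%. The shares of Slc26a2 and Slc26a11 were lower and those of Slc26a1 and Slc26a7 higher in every P12 library than in any P5 library. Slc26a6 held 6.87 ± 0.26% and 3.33 ± 1.25%. Without division by length, Slc26a2 held 54.6% at P5 and 20.9% at P12. The order of these 5 genes was the same with and without that division at both ages.

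**Figure D3:**
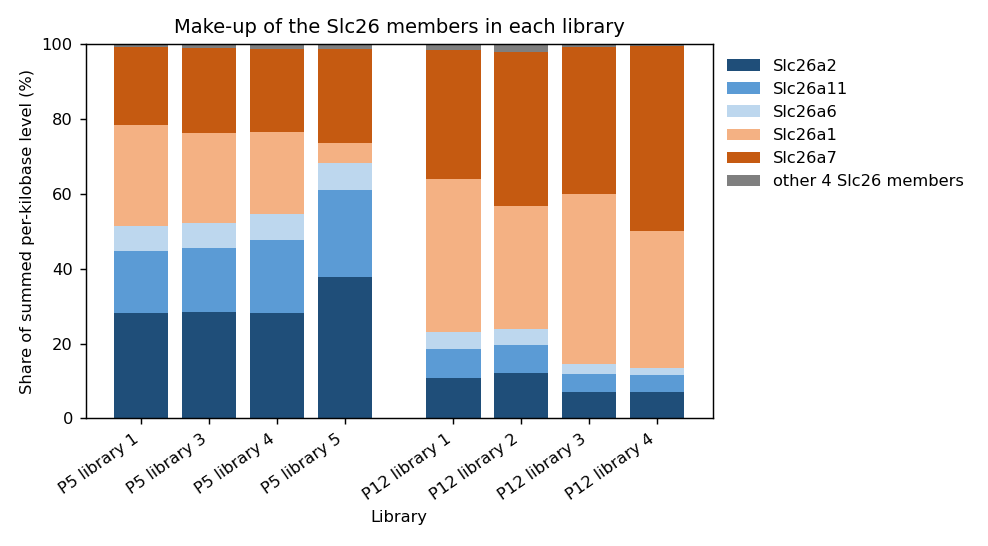
Share of the summed per-kilobase level of the Slc26 members held by each gene, as a stacked bar for each of the 8 libraries. The mean share of Slc26a2 goes from 30.7% at P5 to 9.20% at P12, that of Slc26a7 from 22.6% to 41.0%, and Slc26a1 is at 5.30% in P5 library 5.

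Cftr was also set against partner exchangers in the same library, as the log2 ratio of per-kilobase levels with a pseudocount of 1. The ratio to Slc26a6 was 0.75 ± 0.08 at P5 and 3.42 ± 0.58 at P12, a difference of 2.66. The ratio to Slc26a7 was -0.96 ± 0.15 and -0.27 ± 0.29, a difference of 0.69, and that to Slc26a4 was 4.38 ± 0.48 and 6.20 ± 0.79, a difference of 1.82. Against Slc4a2, the basolateral chloride/bicarbonate exchanger, the ratio was -3.04 ± 0.20 and -0.30 ± 0.17, a difference of 2.73. None of these 4 overlapped between the ages. For Slc26a3 the sign of the difference turned with the pseudocount, from -0.34 at 1 to 1.27 at 5, and no ratio was read.

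Genes with the most similar profile were searched among 12862 genes by the root mean square (RMS) difference of centred log2 values over the 8 libraries. Closest to Cftr were Cfap69 (RMS 0.09), Cnnm2 (0.11) and Cep126 (0.12). Closest to Slc26a1 were Amtn (0.30), an enamel matrix protein of the maturation stage, Cdkn2b (0.31) and Esm1 (0.50). Closest to Slc26a7 were Xpr1 (0.18), a phosphate exporter, Timp3 (0.19) and Camk1d (0.20). Slc26a7 was 0.40 from Cftr and ranked 129 of those genes, whereas Slc26a1 was 0.75 from Cftr and ranked 959. The measure takes in the size of the age change. The log2 fold changes of Cfap69, Cnnm2 and Cep126 were 2.51, 2.31 and 2.44, beside 2.39 for Cftr.

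Within P12, Cftr and Slc26a7 were lowest in library 1 and highest in library 4. The secretory marker sum was lowest and highest in the same libraries (237041, 264278, 433633 and 621683 in libraries 1 to 4). So was the maturation marker sum (356963, 442551, 458253 and 482565). Among the single markers, Amelx and Enam were lowest in library 2, and Odam was highest there. The other markers of both lists were lowest in library 1 and highest in library 4, and Odam was also lowest in library 1. Slc26a9 differed from Cftr and Slc26a7, being highest in library 2 (38.0) and lowest in library 4 (7.03). The oral epithelium marker sum was highest in library 2 and lowest in library 4 too (25044, 30595, 19253 and 3152 in libraries 1 to 4). So was that of osteoclasts (6343, 7902, 4945 and 3164). Of their single markers, Krt24 and Ocstamp were highest in library 1 and Oscar was lowest in library 3. The others were highest and lowest in the same libraries as the sums. All 4 markers of each of these lists were called higher at P12, from summed levels of 438 to 845 and of 1027 to 1671 at P5. The macrophage marker sum was 631 to 883 at P5 and 958 to 1299 at P12. It was also highest in P12 library 2 and lowest in P12 library 4, but of its genes only Csf1r had that order. Cd68 and Adgre1 were highest in P12 library 1. The endothelial marker sum (1922 to 2306 at P5, 3719 to 4031 at P12) was lowest in library 2 and highest in library 4. Only Kdr had that order, and Pecam1 and Cdh5 were highest in library 2. The part of cell makeup in the member values was not tested.

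**Figure D4:**
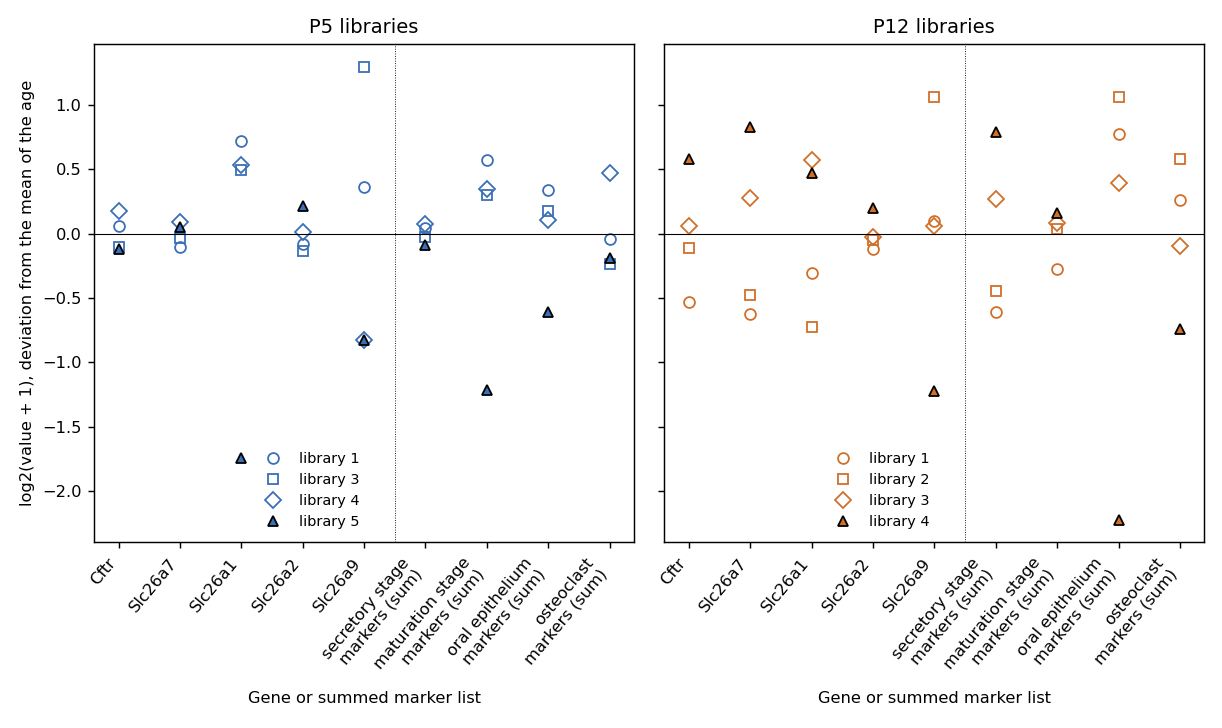
Deviation of log2(value + 1) from the mean of its age for 5 members and 4 summed marker lists, with P5 libraries on the left and P12 libraries on the right. The filled triangles mark P5 library 5, low for Slc26a1 and for the maturation markers, and P12 library 4, high for Cftr and Slc26a7 and low for Slc26a9.

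Genes that work with these transporters were followed in 4 lists. Of 16 carbonic anhydrases, 13 were tested, 3 rose, 3 fell and 7 were not called (median log2 fold change -0.23). Car2, a cytosolic carbonic anhydrase, rose from 2039 ± 485 to 4167 ± 180 (log2 fold change 1.03, edgeR adjusted p = 1.2e-04), and Car13 rose from 1319 ± 45.9 to 2038 ± 163 (0.63, edgeR adjusted p = 1.4e-05). Of 13 bicarbonate and proton partners, 11 were tested, 3 rose and 5 fell (median -0.36). The anion exchanger Slc4a3 fell from 1570 ± 272 to 616 ± 67.6 (-1.35, edgeR adjusted p = 2.9e-06), and the bicarbonate cotransporter Slc4a7 fell by 0.36 on the log2 scale (edgeR adjusted p = 0.0015). Slc4a2 was at 5763 ± 303 and 4493 ± 1216 (-0.36, edgeR adjusted p = 0.061), and the bicarbonate cotransporter Slc4a4 at 8146 ± 457 and 7534 ± 2735 (-0.11, edgeR adjusted p = 0.64).

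Of 22 regulators of Cftr and Slc26, 20 were tested, 8 rose and 6 fell (median -0.03). The kinase Stk39 rose from 245 ± 34.0 to 1033 ± 83.5 (2.08, edgeR adjusted p = 3.6e-08), while Wnk3, of the WNK kinases that act upstream of it, fell from 176 ± 18.3 to 44.6 ± 4.49 (-1.98, edgeR adjusted p = 8.2e-07). Prkar1b, a regulatory subunit of protein kinase A, fell from 351 ± 57.6 to 180.1 ± 22.3 (-0.96, edgeR adjusted p = 9.4e-05). Of 8 genes of sulfate uptake and activation, 7 were tested, none rose and 5 fell (median -0.44). Each of the 4 lists is to be read beside the 28.8% of all tested genes called higher, the 28.4% called lower and the median of 0.01, and nothing particular to a list was read from its counts. Papss2, which makes the activated sulfate donor, fell from 3604 ± 293 to 1181 ± 90.6 (-1.61, edgeR adjusted p = 3.2e-08), Impad1 from 4947 ± 625 to 2421 ± 134 (-1.03, edgeR adjusted p = 3.3e-06) and Slc35b3, a transporter of that donor, from 969 ± 103 to 548 ± 30.4 (-0.82, edgeR adjusted p = 9.2e-06). Of the members described above as sulfate transporters or exchangers, Slc26a2 and Slc26a11 fell and Slc26a1 rose.

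Scaling by total counts changed these splits to 3 higher and 1 lower for the carbonic anhydrases, 3 and 4 for the partners, 13 and 2 for the regulators, and 3 and 3 for the sulfate genes. The medians became 0.14, 0.012, 0.34 and -0.063 in that order, so those of the first 3 lists turned positive. Of the list genes named above, so did Slc4a4 (0.25), Slc4a7 (0.012) and Slc4a2 (0.0016). Over all 16440 tested genes the same scaling gave 8877 higher and 2330 lower. The all-gene median became 0.38, and each list median was below it, so nothing particular to a list was read here either.

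**Figure D5:**
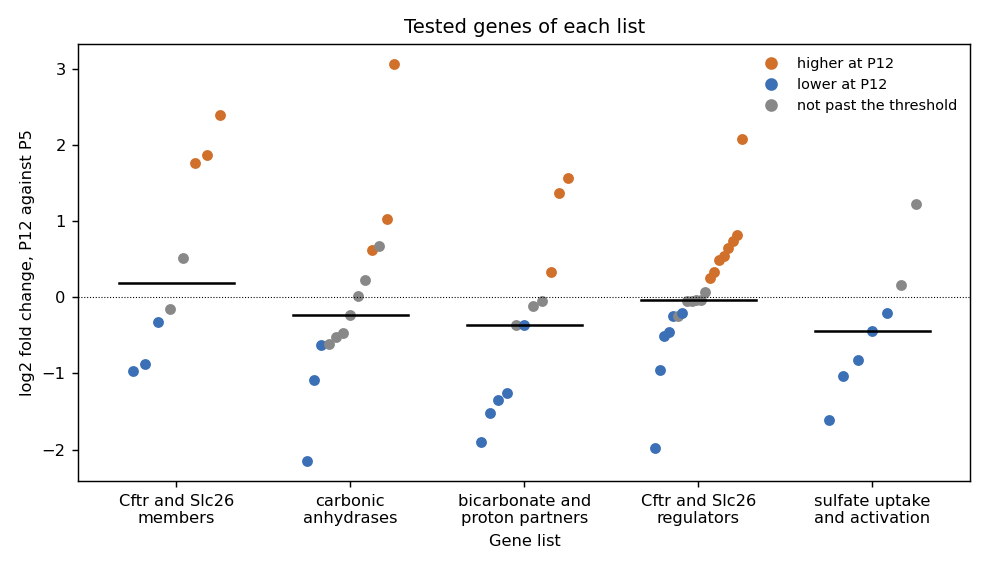
Log2 fold change at P12 against P5 of each tested gene in the 4 lists of related genes, and of the members, with 1 point per gene, coloured by its call, and a line at the median. The medians are 0.18 for the members, -0.23 for the carbonic anhydrases, -0.36 for the bicarbonate and proton partners, -0.03 for the regulators and -0.44 for the sulfate genes.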

How the data were processed

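RNA had been taken up in TRIzol, purified with a Zymo kit and enriched by polyA capture. The deposited values are raw counts per gene, which the authors made from reads of 8 libraries. The submitters' processing notes name mm39 and CASAVA, but gene coordinates in the table were those of GRCm38, with all 10 members placed as in GENCODE M21. The aligner, counter, strand setting and annotation release are not given in the sources used here. Groups came from the age in the labels, and no batch was labelled.

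Genes were filtered with filterByExpr, scaled by TMM and tested with edgeR 4.0.16 (limma 3.58.1, R 4.3.3) in a quasi-likelihood fit with age as the only term, at an adjusted p under 0.05 over all genes tested. Normalized counts, per-kilobase levels and ratios were made from the same effective sizes. Low members were tested by exact permutation over libraries. The members, the lists and the tests were chosen with earlier results of these data known. Named list genes were the 3 called genes with the largest change and a mean of at least 100, with Car2, Slc4a2 and Slc4a4 named in any case. A further gene that this rule names is not reported here. Similar genes were the 3 nearest with a mean of at least 50. Scripts were tested on simulated data. Among the 12 pairs of libraries of the same age, chi-square over degrees of freedom was 4.76 to 74.6, above the value near 1 of a library read again, and all 8 libraries were kept. Alternatives were DESeq2 1.42.0, other scalings and filters, a replicate block and leaving out each library. Intervals cover counting error only.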

Additional observations from a re-analysis of the deposited data

Results flagged for a closer look

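In 46 groups of 4 libraries, 3 values stood apart from the other libraries of their age by Dixon's test, where chance gives about 1 in 20, or 2.3. Slc26a10 was at a normalized count of 24.3 in P5 library 5, against 14.5 to 15.4 in the other P5 libraries. Slc4a2 was at 6217 in P5 library 5, against 5604 to 5617. Slc4a7 was at 437 in P12 library 4, against 386 to 390.0. The test was run on normalized counts without logarithm. On that scale Slc26a1 in P5 library 5, at 145 against 685 to 801, was not flagged.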

How the results depend on the processing

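Cftr, Slc26a1, Slc26a2, Slc26a7 and Slc26a11 kept their direction and their call in all 18 alternatives run on them. Leaving out each library in turn gave log2 fold changes of 2.16 to 2.54 for Cftr, 1.53 to 2.06 for Slc26a1, -1.04 to -0.90 for Slc26a2, 1.42 to 1.94 for Slc26a7, -0.94 to -0.81 for Slc26a11 and -0.38 to -0.28 for Slc26a6. Slc26a6 reversed to 0.058 with total count scaling and lost its call in 6 other alternatives. Over all genes, total count scaling gave 8877 higher and 2330 lower, and a limit of 1 on the absolute log2 fold change gave 1864 and 1677. That limit left 0 members lower, since Slc26a2 was at -0.97. DESeq2 called 5 members higher, as did edgeR with no filter, because Slc26a3 and Slc26a9 were then tested. Among all genes, DESeq2 called 4991 higher and 4973 lower, and edgeR with no filter 5123 and 4893. Same-numbered libraries, 3 pairs, had deviation correlations of -0.04 to 0.04, within the -0.07 to 0.06 of differently numbered pairs. The numbers thus showed no sign of pairing, which 3 pairs cannot exclude. With the replicate block on the 6 same-numbered libraries, 3 members were higher and 2 lower, with Cftr at 2.34 and Slc26a6 at -0.30 (edgeR adjusted p = 0.12). Without the block on the same 6 libraries the member counts were the same. All-gene calls were 3867 higher and 3843 lower with the block, and 4076 and 4041 without it. Depth limits Slc26a3, Slc26a4, Slc26a9 and Slc26a10, whose counts were 45 or fewer in every library.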

Other observations

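The genes given here were chosen after their values were seen, and Car6 and Car5b are among the 13 carbonic anhydrases tested and counted above. Car6, a secreted carbonic anhydrase, had normalized counts of 494, 281, 183.2 and 28.6 at P5 and 57.2, 43.0, 201 and 393 at P12, with a log2 fold change of -0.52 (SE 0.75, edgeR adjusted p = 0.57), and its libraries overlapped widely. Car5b, a mitochondrial carbonic anhydrase, rose from 18.2 ± 5.49 to 153 ± 26.8 (SD, n = 4 each, log2 fold change 3.07, edgeR adjusted p = 8.6e-07). Slc26a8 was at 30.8 ± 11.7 and 18.9 ± 2.25 (-0.71, edgeR adjusted p = 0.063), and Slc26a5 had at most 2 counts in any library.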
